A study of Mus musculus with 9 samples.

Results

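The 8 genes described here are those named as markers of the Ly6C-low monocyte, together with related members of the Cd300 and Adgre families: Ace, Adgre4, Treml4, Spn, Cd300e, Cd300ld, Pou2f2 and Eno3. They were taken by symbol, as probes annotated with exactly 1 of these names, and each was read by 1 probe, so they are 8 of the 22180 genes tested. The 9 arrays each measured RNA from splenic mouse dendritic cells (DCs), sorted for CD11c and MHC class II. The 3 knockout samples (C/EBPβ-/-) came from CD11c.Cre x C/EBPβflox/flox mice, in which Cre is driven by the CD11c promoter so that floxed Cebpb is cut out where that promoter is active. The 6 control samples (C/EBPβ+/+) came from C57BL/6 or CD11c.Cre mice, and the labels do not say which control came from which. All 9 are labelled naive and of C57BL/6 background, and age is not stated. Nothing says that replicates came from separate animals, so the p-values may reflect technical spread alone.

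Ly6C-low monocytes, also called non-classical or patrolling monocytes, crawl along the inner wall of small vessels and clear debris there. They arise largely from Ly6C-high monocytes and need the nuclear receptor Nr4a1, and in mice C/EBPβ is among the factors known to sustain them. Some of them carry CD11c, so the CD11c-driven Cre can act in them as well as in DCs, and a CD11c gate can hold some of them. Several of the 8 genes are also used by other spleen cells: Treml4 by CD8α-positive DCs and macrophages, Spn by T cells and plasma cells, and Pou2f2 by B cells.

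The promoter windows of the 2 genes that rose and of Treml4, whose groups overlapped, are shown because the deleted gene encodes a DNA-binding factor. They are the 250 bases before a transcript start in RefSeq (GRCm38.p6), all on the + strand, and capitals mark a match to any of 4 motifs searched on both strands. Ace has 2 windows, since a second, shorter form known from male germ cells starts inside the gene, and the files give 1 value for both. The windows lie at chr11:105967698-105967947 and chr11:105974939-105975188 for Ace, chr17:55749734-55749983 for Adgre4 and chr17:48264045-48264294 for Treml4.
Ace, upstream start: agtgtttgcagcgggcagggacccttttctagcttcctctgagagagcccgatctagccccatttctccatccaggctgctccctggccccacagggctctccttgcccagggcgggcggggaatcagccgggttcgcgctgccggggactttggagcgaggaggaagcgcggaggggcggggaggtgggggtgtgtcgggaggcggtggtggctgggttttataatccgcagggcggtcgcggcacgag
Ace, internal start: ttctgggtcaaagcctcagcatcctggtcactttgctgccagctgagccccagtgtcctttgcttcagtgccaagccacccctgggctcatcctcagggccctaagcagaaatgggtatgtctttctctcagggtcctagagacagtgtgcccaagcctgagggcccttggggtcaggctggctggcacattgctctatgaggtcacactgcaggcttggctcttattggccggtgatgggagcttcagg
Adgre4: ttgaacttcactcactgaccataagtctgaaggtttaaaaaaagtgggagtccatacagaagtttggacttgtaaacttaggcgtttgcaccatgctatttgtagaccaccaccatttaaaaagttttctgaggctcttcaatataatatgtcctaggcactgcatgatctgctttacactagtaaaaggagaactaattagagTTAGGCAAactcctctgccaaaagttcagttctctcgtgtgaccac
Treml4: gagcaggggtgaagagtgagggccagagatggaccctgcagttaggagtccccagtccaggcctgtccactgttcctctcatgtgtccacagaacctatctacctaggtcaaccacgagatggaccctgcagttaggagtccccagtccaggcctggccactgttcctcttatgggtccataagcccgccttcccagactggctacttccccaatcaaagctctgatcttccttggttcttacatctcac
The Adgre4 window held 1 match to the C/EBP motif TTGCNNAA, read as TTAGGCAA from 46 to 39 bases before the start. Of all 32851 windows in the table, 9.56% held this motif. It was found in 1 of the 8 genes. The octamer motif ATGCAAAT (1.6% of all windows) and the NR4A motif AAAGGTCA (1.34%) were in none of the members' 9 windows, and the PU.1 motif GAGGAAGT (2.44%) was in the Cd300ld window. No 2 matches overlap. A match is a run of letters and not a measured binding site.

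Cebpb, the deleted gene, was at a log2 intensity of 5.37, 5.60 and 5.42 in the 3 knockout samples, and the 6 controls ran between 6.64 and 7.15. The array medians lay between 5.49 and 5.56, and any 2 arrays correlated at 0.987 to 0.996 across probes. Of the genes used for the sort, the MHC class II gene H2-Ab1 averaged 13.72 ± 0.03 (SD, n = 3) in knockouts and 13.68 ± 0.02 (SD, n = 6) in controls. H2-Aa differed by 0.09, and the list of 7 gate and DC identity genes had 0 members past the threshold. All values below are log2 intensities as the authors normalised them, and a change is the log2 difference, knockout minus control. A gene is said to have risen or fallen when limma's p, adjusted over all 22180 genes, is below 0.05.

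Of the 8 genes, Ace and Adgre4 were higher in knockout DCs and the other 6 did not pass the test. Over all genes tested, 0.415% were higher in the knockout by this rule, 0.491% were lower and 0.906% differed in either direction. The median change of the 8 was 0.06, beside -0.01 over all genes. The 8 genes were chosen with earlier results of these data known, so their count and median are a description. The 2 that rose lay with all 3 knockouts above all 6 controls, as did 2.52% of all genes. In 4.88% of all genes every knockout lay below every control, so 7.39% did not overlap in either direction. In bulk RNA, more cells of a type and more RNA per cell cannot be told apart. Without knockout replicate 2 or without knockout replicate 3 the number that rose was 1, and it was then Ace.

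**Figure D1:**
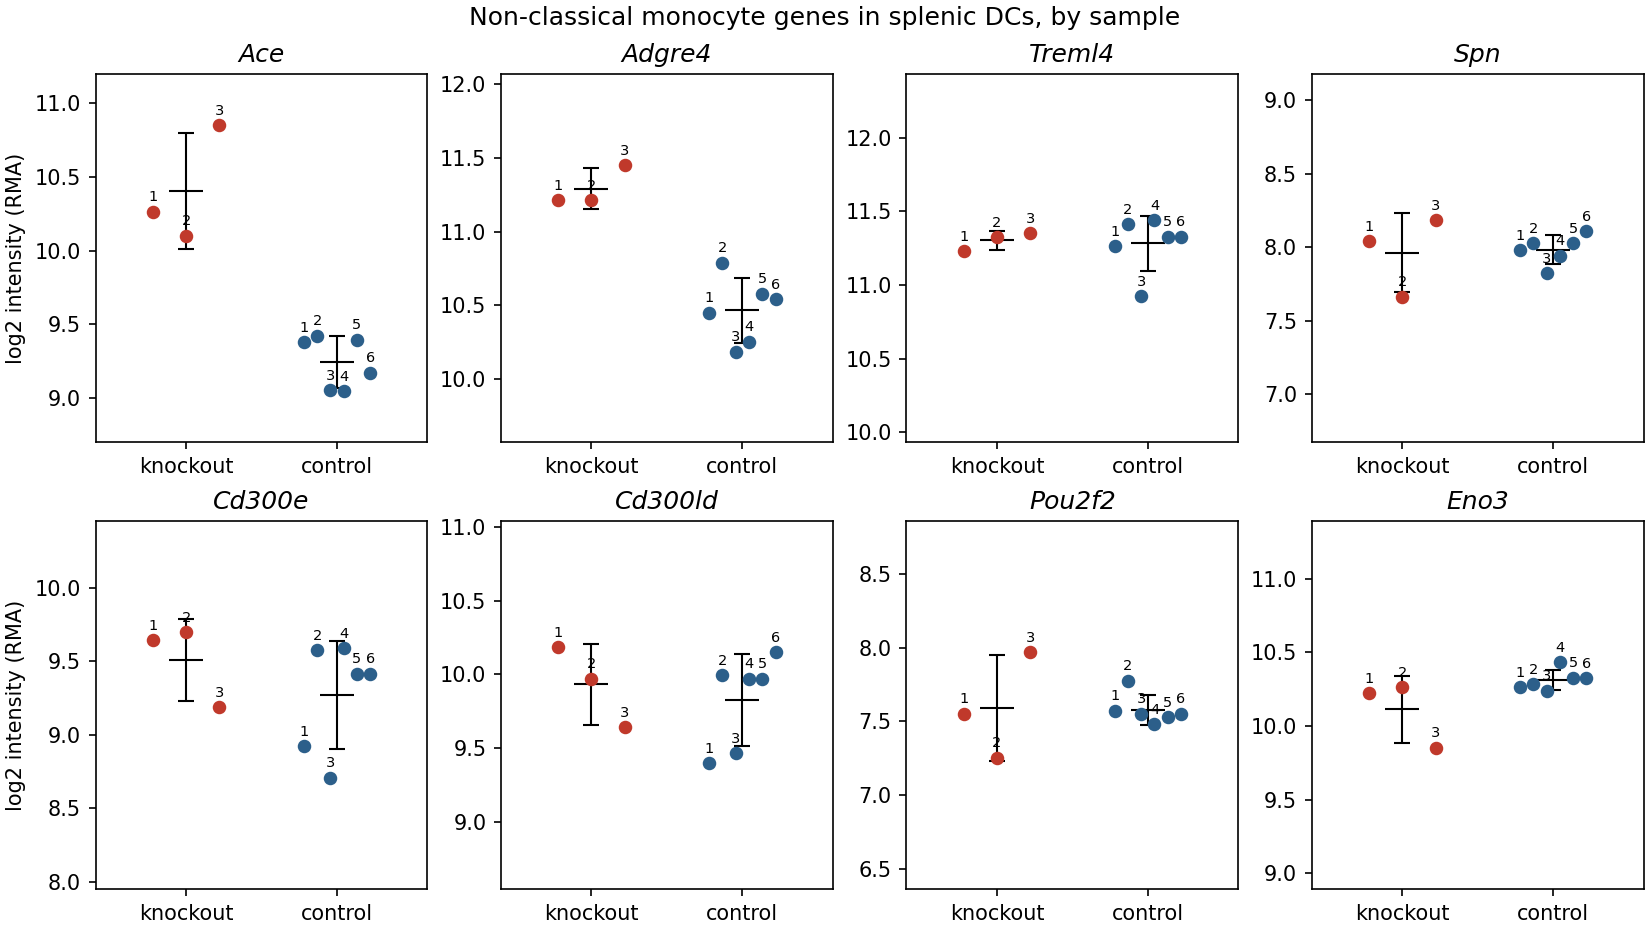
Log2 intensity (vertical axis, each panel spanning the same width of 2.5 log2 units) of the 8 genes in 3 knockout samples (red) and 6 control samples (blue). Points are samples with their replicate number, and bars are the mean ± SD. In Ace and Adgre4 every knockout lies above every control. In the other 6 panels the groups overlap.

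Ace encodes angiotensin-converting enzyme, a membrane dipeptidase that makes angiotensin II and also trims peptides bound for MHC class I. Its level was 10.27, 10.10 and 10.85 in the knockouts, by replicate number. In control replicates 1 to 6 it was 9.38, 9.42, 9.05, 9.05, 9.40 and 9.17. The lowest knockout stood 0.68 above the highest control, and knockout replicate 3 was the highest of all. The change was 1.16 (SE 0.15, 95% confidence interval 0.82 to 1.503), a ratio of 2.24-fold. Its adjusted p by limma was 0.0096. The means were 10.41 ± 0.39 (SD, n = 3) in knockouts and 9.24 ± 0.18 (SD, n = 6) in controls. Ace stood at place 22 of 22180 when genes were ordered by increase. Whichever sample was left out it passed, with changes of 0.94 to 1.31.

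Adgre4 encodes an adhesion G protein-coupled receptor with EGF-like repeats, a relative of the macrophage antigen F4/80. Its level was 11.21, 11.21 and 11.45 in the knockouts, by replicate number. In control replicates 1 to 6 it was 10.45, 10.79, 10.19, 10.25, 10.58 and 10.54. The gap between the lowest knockout and the highest control was 0.42, smaller than the control range of 0.60. The change was 0.83 (SE 0.12, 95% confidence interval 0.55 to 1.10), a ratio of 1.77-fold. Its adjusted p by limma was 0.020. It missed the threshold without knockout replicate 2 (0.87, limma's adjusted p = 0.070) and without knockout replicate 3 (0.75, limma's adjusted p = 0.053). Over all left-out samples the change lay between 0.75 and 0.89.

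Treml4, a TREM-like receptor that binds dying cells and promotes signalling by the RNA sensor TLR7, did not pass the test. Its level was 11.23, 11.33 and 11.35 in the knockouts, against 11.27, 11.41, 10.92, 11.44, 11.33 and 11.33 in control replicates 1 to 6. All 3 knockouts lay inside the control range, and control replicate 3 was the lowest sample. The change was 0.02 (95% confidence interval -0.21 to 0.25, limma's adjusted p = 0.96), an interval that ends below that of Ace and that of Adgre4.

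Cd300e and Cd300ld belong to a cluster of CD300 immunoglobulin-superfamily receptors on chromosome 11. Cd300e, in human an activating receptor of monocytes, was 9.64, 9.70 and 9.19 in the knockouts. In control replicates 1 to 6 it was 8.92, 9.58, 8.71, 9.59, 9.42 and 9.42. Knockout replicates 1 and 2 were above all controls, while knockout replicate 3 was inside their range. The change was 0.24 (95% confidence interval -0.21 to 0.68, limma's adjusted p = 0.66). Cd300ld was 10.18, 9.97 and 9.64 in the knockouts, against 9.40, 9.99, 9.47, 9.97, 9.97 and 10.15 in control replicates 1 to 6. Its change was 0.11 (95% confidence interval -0.29 to 0.50, limma's adjusted p = 0.85). The 2 genes shared their low samples: control replicates 1 and 3 were the lowest controls for both, and knockout replicate 3 the lowest knockout for both. Their control ranges of 0.88 and 0.75 were the widest among the 8 genes, and their intervals, the widest too, reach 0.68 and 0.50.

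Spn encodes CD43, a sialic acid-rich mucin of the leukocyte surface that is used to gate Ly6C-low monocytes. It was 8.04, 7.66 and 8.18 in the knockouts, against 7.98, 8.03, 7.82, 7.94, 8.03 and 8.11 in control replicates 1 to 6. The change was -0.02 (95% confidence interval -0.25 to 0.21, limma's adjusted p = 0.96). Pou2f2, which encodes the octamer-binding factor Oct-2, was 7.55, 7.25 and 7.97 in the knockouts, against 7.57, 7.78, 7.55, 7.48, 7.53 and 7.55 in control replicates 1 to 6. Its change was 0.01 (95% confidence interval -0.27 to 0.30, limma's adjusted p = 0.98). In both genes the knockouts spread wider than the controls, with knockout replicate 2 below and knockout replicate 3 above every control. Their SDs were 0.27 and 0.36 in knockouts (n = 3), against 0.10 and 0.10 in controls (n = 6).

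Eno3, the enolase form best known from muscle, was 10.22, 10.265 and 9.85 in the knockouts. In control replicates 1 to 6 it was 10.265, 10.28, 10.24, 10.43, 10.33 and 10.32. Knockout replicate 3 stood apart at the low end, and the groups met at knockout replicate 2. The change was -0.20 (95% confidence interval -0.40 to 0.00074), with an unadjusted p = 0.051 and limma's adjusted p = 0.35. Without knockout replicate 3 it was -0.07.

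The order of samples differed between the 8 genes. Knockout replicate 3 was the highest of all 9 samples for Ace, Adgre4, Spn and Pou2f2, and the lowest knockout for Cd300e, Cd300ld and Eno3. Control replicate 3 was the lowest control for 5 of the 8, namely Adgre4, Treml4, Spn, Cd300e and Eno3.

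**Figure D2:**
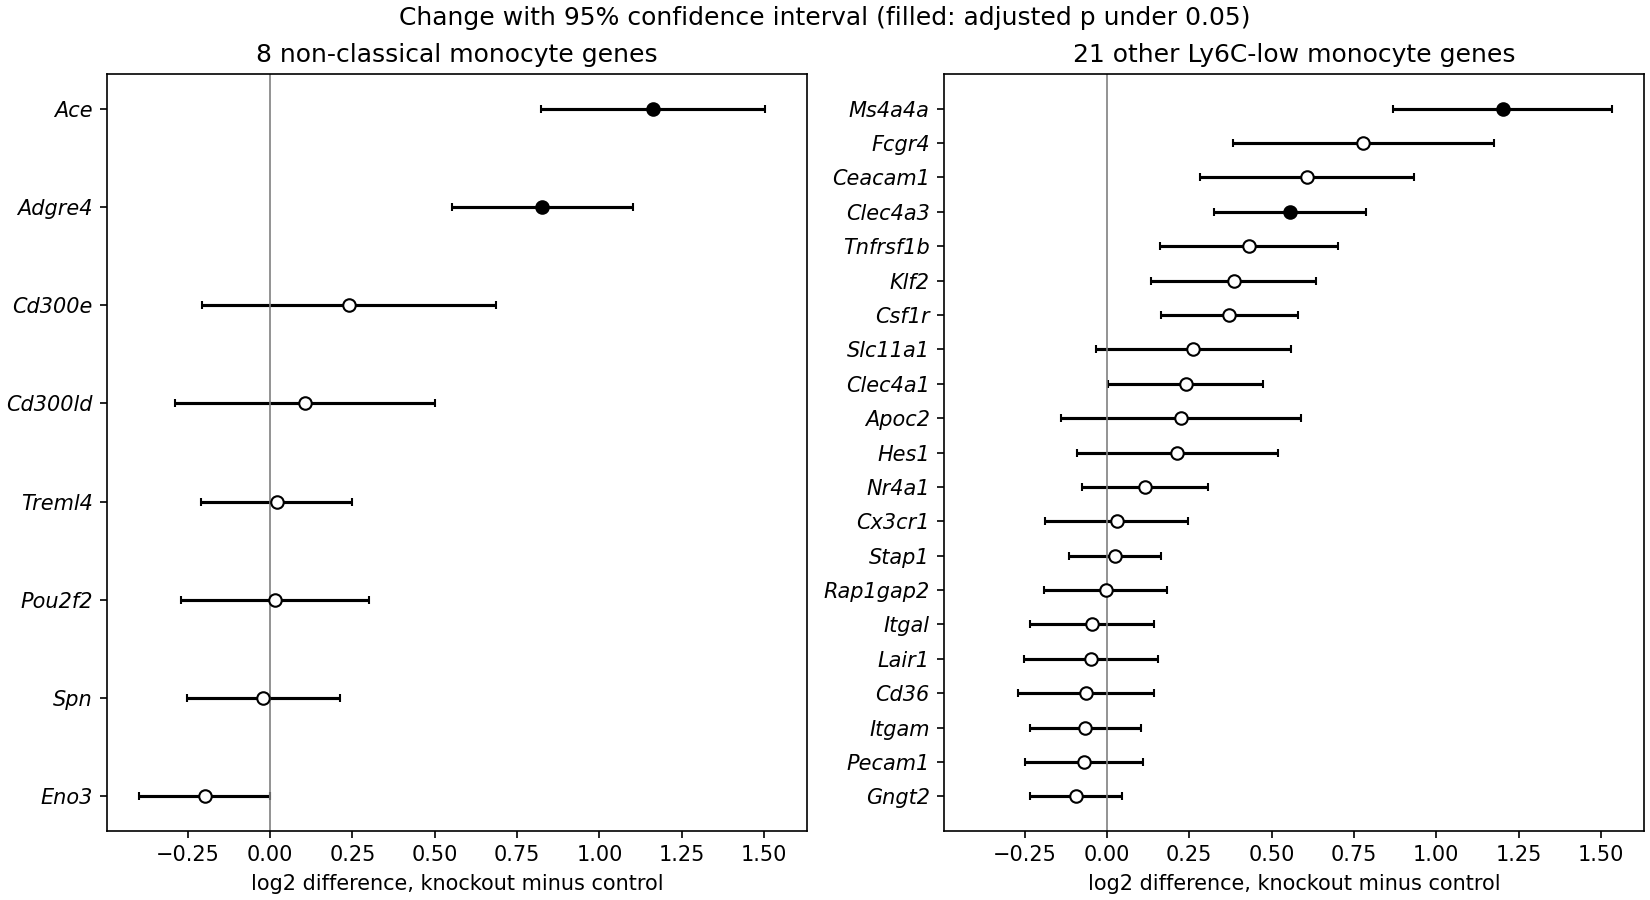
Log2 difference, knockout minus control (horizontal axis), with limma's 95% confidence interval for the 8 genes (left) and for 21 other Ly6C-low monocyte genes (right). Filled points passed an adjusted p of 0.05. On the left Ace at 1.16 and Adgre4 at 0.83 are filled, the interval of Adgre4 (from 0.55) overlaps that of Cd300e (to 0.68), and on the right Ms4a4a at 1.201 and Clec4a3 at 0.56 are the filled points.

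Other genes known from Ly6C-low monocytes were read in the same way. Of 23 listed genes, 21 were measured, of which 2 rose and 0 fell, beside 0.415% and 0.491% of all genes. The median change of the 21 was 0.21, beside -0.01 over all genes. The list was chosen with earlier results of these data known, so its counts and median are a description. Ms4a4a was placed in it with its rise already known. The 2 that rose were Ms4a4a, a tetraspan membrane protein (7.35 ± 0.09 in knockouts, n = 3, and 6.14 ± 0.29 in controls, n = 6, SD), with a change of 1.201 (limma's adjusted p = 0.0071), and the C-type lectin Clec4a3. Clec4a3 changed by 0.56 (limma's adjusted p = 0.045). It missed the threshold without any 1 of the 6 controls or without knockout replicate 2. The count of genes that rose was then 1, except that without control replicate 2 Klf2 passed and it was 2. The Fc receptor gene Fcgr4, whose product binds IgG2 antibodies, was 8.45, 8.60 and 9.27 in the knockouts, against 7.59 to 8.19 in the controls, a change of 0.78 (limma's adjusted p = 0.076). Ceacam1, an adhesion molecule known to act in the survival of these monocytes, differed by 0.61 (limma's adjusted p = 0.085). Both had all 3 knockouts above all controls, as did 6 of the 21, Ms4a4a among them, beside 2.52% of all genes. Nr4a1 was 12.90, 13.02 and 12.84 in the knockouts, against 12.64 to 13.03 in the controls (change 0.12, 95% confidence interval -0.08 to 0.31), and the fractalkine receptor Cx3cr1 differed by 0.03 (95% confidence interval -0.19 to 0.25).

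Among 12 measured factors of monocyte fate, 0 rose and 1 fell, Cebpb itself (-1.35, SE 0.11, limma's adjusted p = 0.00074). The Krüppel-like factors Klf2 (0.38, limma's adjusted p = 0.15) and Klf4 (0.36, limma's adjusted p = 0.19) had the next smallest p. Cebpa, the related C/EBP factor, differed by 0.12 (limma's adjusted p = 0.48).

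**Figure D3:**
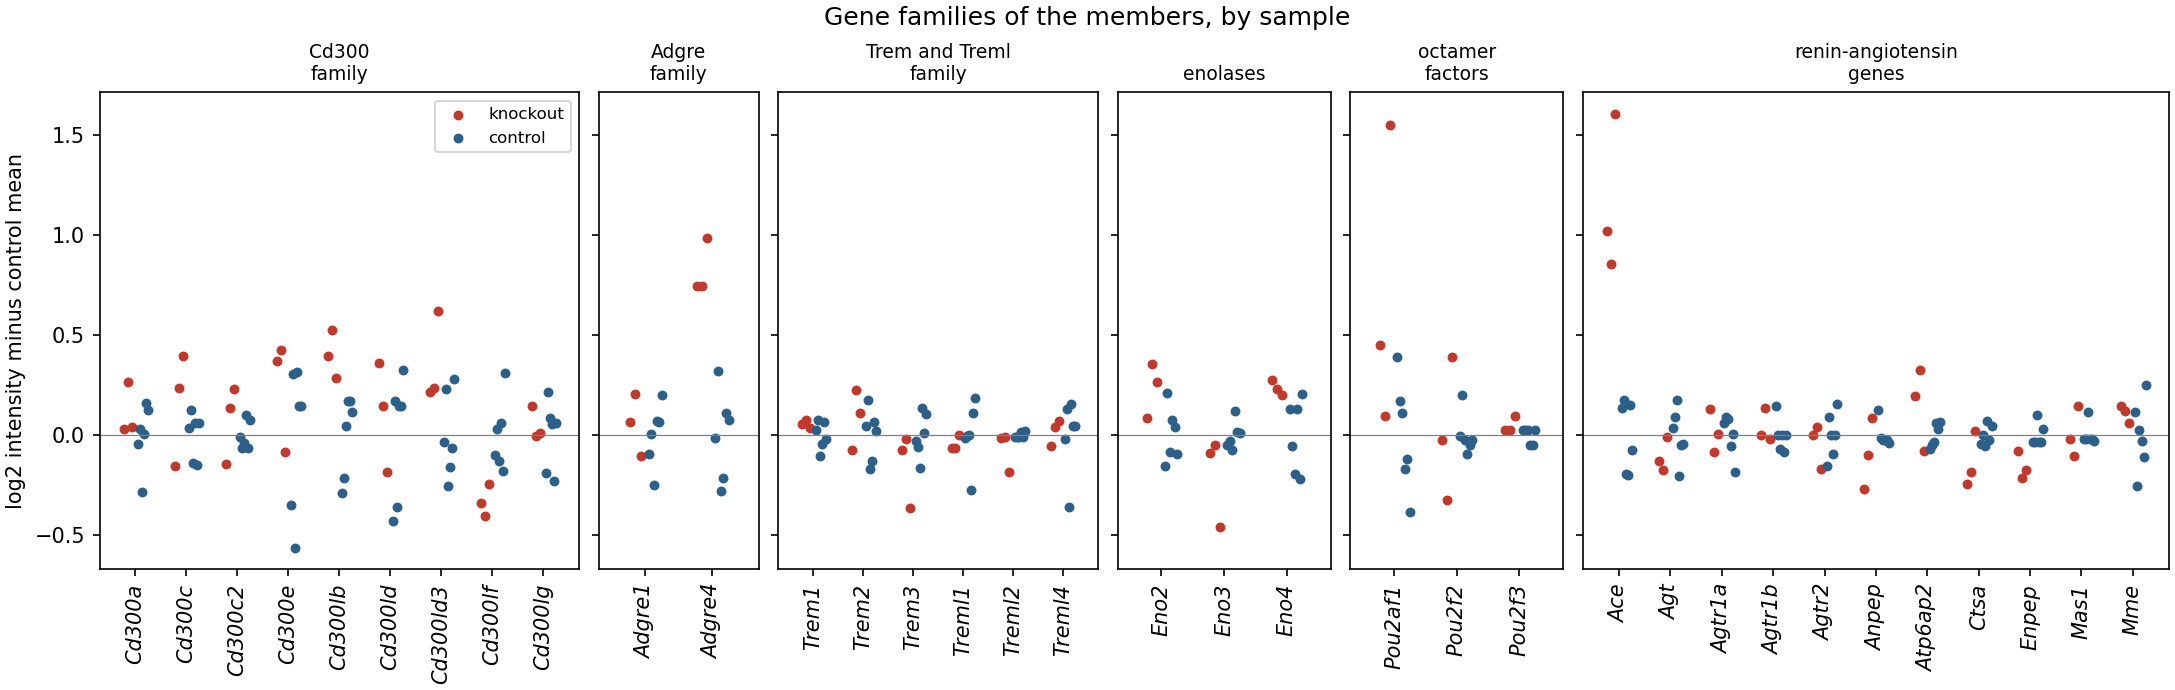
Log2 intensity minus the control mean (vertical axis) for the measured genes of 6 families or pathways in knockout (red, left of each name) and control samples (blue, right of it). Ace and Adgre4 are the genes with knockout points well above the controls. Cd300lb lies above and Cd300lf below the controls by less, and Pou2af1 is high in 1 knockout.

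Adgre1, the F4/80 gene and a relative of Adgre4, did not pass. It was 10.48, 10.62 and 10.31 in the knockouts and 10.17 to 10.61 in the controls (change 0.06, 95% confidence interval -0.16 to 0.28, which ends below the interval of Adgre4). In the Cd300 family 0 of 9 measured genes passed, with a median of 0.11. The 2 with the smallest p ran opposite ways without passing: the activating receptor Cd300lb differed by 0.40 (limma's adjusted p = 0.13) and the inhibitory receptor Cd300lf by -0.33 (limma's adjusted p = 0.16). Genes of this family are alike in sequence, and how the probes divide them is not given in the sources used here. In the Trem and Treml family 0 of 6 passed, and the changes ran from -0.15 to 0.09. Trem3 (-0.15) and Treml2 (-0.07) had the smallest p.

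Ace was the single gene of 11 measured renin-angiotensin genes past the threshold. The substrate gene Agt was 5.40 to 5.57 in the knockouts and 5.37 to 5.75 in the controls. The receptor genes Agtr1a, Agtr1b and Agtr2 had means of 4.16 to 4.89 in knockouts and 4.20 to 4.87 in controls. The peptidase gene Enpep had the next smallest p (-0.16, limma's adjusted p = 0.25), followed by Ctsa, the lysosomal cathepsin A (-0.14, limma's adjusted p = 0.41). Enpep was dim, with a mean of 4.15 in knockouts and 4.30 in controls, below every array's median.

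Among octamer factors and their partners 0 of 3 passed. The B cell coactivator gene Pou2af1 was 6.71, 6.35 and 7.81 in the knockouts, against 5.87 to 6.65 in the controls, so it was high in knockout replicate 3 as Pou2f2 was (change 0.70, limma's adjusted p = 0.27). Pou2f3, a related octamer factor gene, differed by 0.05. Of 3 measured enolases 0 passed, and Eno1 was not among the genes tested. Eno2 (0.24, limma's adjusted p = 0.27) and Eno4 (0.24, limma's adjusted p = 0.31) differed in the direction opposite to Eno3. Eno4 was dim, with a mean of 4.51 in knockouts and 4.27 in controls, below every array's median. Of 9 genes for proteins that bind CD43 or link it to the cytoskeleton, 0 passed, and the galectin gene Lgals1 had the smallest p (0.43, limma's adjusted p = 0.061), followed by Cd44, the hyaluronan receptor gene (0.23, limma's adjusted p = 0.22).

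Genes whose profile over the 9 samples lay nearest to Ace, by root mean square distance of values centred on the control mean, were the chemokine gene Ccl9 (0.14), Ms4a14 (0.17) and the RNA sensor gene Tlr8 (0.20). Nearest to Adgre4 were the inhibitory Fc receptor gene Fcgr2b (0.10), Tlr8 (0.13) and the lysosomal protease gene Lgmn (0.15). Ccl9 changed by 1.13, Fcgr2b by 0.74, Tlr8 by 0.92 and Lgmn by 0.86, all past the threshold, while Ms4a14 (0.99, limma's adjusted p = 0.077) was not. These genes were picked for the same samples and contrast, so their changes are a description.

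Markers of other spleen cells are given beside the 8 genes. The 12 red pulp macrophage markers had 0 members past the threshold and 9 at an unadjusted p below 0.05, all higher, with a median change of 0.67, beside 5.50% of all genes higher at that unadjusted level. Their summed level, the log2 of the members' added linear intensities, was 12.81 to 13.30 in the knockouts, against 11.77 to 13.12 in the controls. Array intensities have no true zero, so no marker could be called absent. The complement gene C1qb and Hmox1, which encodes the heme-degrading enzyme, were the brightest, differing by 0.72 and 0.57. The markers' mean, centred on the controls, stood at 0.27 in knockout replicate 1, 0.83 in knockout replicate 2 and 0.78 in knockout replicate 3, and at 0.65 in control replicate 2. Ace was 10.27 in knockout replicate 1 and 9.42 in control replicate 2, and Adgre4 was 11.21 in knockout replicate 1 and 10.79 in control replicate 2. Of the 12 markers, 3 (Axl, Vcam1 and Cd163) were higher in knockout replicate 1 than in control replicate 2, although the mean was lower. In these 3 every knockout lay above every control, as in 2.52% of all genes. The knockout mean was higher than the control mean in all 12 markers, beside 9984 of all 22180 genes. The part of macrophages in the rise of Ace and Adgre4 was not tested.

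The 12 measured classical monocyte markers had 0 past the threshold and a median change of 0.09. Their summed level was 10.78 to 11.07 in the knockouts, against 10.44 to 10.81 in the controls, where control replicate 1 was highest by mean level. Ly6c2, the gene that marks Ly6C-high monocytes, was 8.14, 8.58 and 8.95 in the knockouts, against 7.82 to 8.73 in the controls (change 0.39, limma's adjusted p = 0.48), and Sirpb1c differed by 0.34. Of 12 neutrophil markers 0 passed, with a median change of 0.03. Their summed level was 9.38 to 9.55 in the knockouts, against 9.16 to 9.28 in the controls, and the brightest, Csf3r and Cxcr2, differed by 0.46 and 0.01. Of the 12 neutrophil markers, 10 had a mean below 5.93, the median of all genes' means, as did 8 of the 12 classical monocyte markers. These sums therefore rest largely on the few brighter genes. The part of these cells in the rise of Ace and Adgre4 was not tested.

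B cell markers were highest in knockout replicate 3. Their summed level was 11.16 to 12.23 in the knockouts, against 11.36 to 11.47 in the controls, and 0 of 11 passed, with the brightest, Cd22 and Cd79b, at -0.16 and 0.11. The median change was 0.18 and the largest 1.09. In 8 of the 11 the knockout mean was higher, beside 9984 of all 22180 genes. Centred on the controls, their mean stood at 0.18 in knockout replicate 1, -0.14 in knockout replicate 2 and 0.81 in knockout replicate 3. Ace, Spn and Pou2f2 had the same order of knockouts, replicate 3 highest and replicate 2 lowest. Without knockout replicate 3 the changes were -0.13 for Spn and -0.17 for Pou2f2, and without knockout replicate 2 they were 0.13 and 0.18. The part of B cells in these values was not tested. Of 11 T and NK cell markers 0 passed, with summed levels of 9.40 to 9.60 in the knockouts and 9.52 to 9.75 in the controls, and with Cd5 and Nkg7 brightest at -0.31 and 0.12. Their median change was 0.02. In 9 of these 11 the mean was below the median of all genes' means, so the sums rest largely on the few brighter genes.

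**Figure D4:**
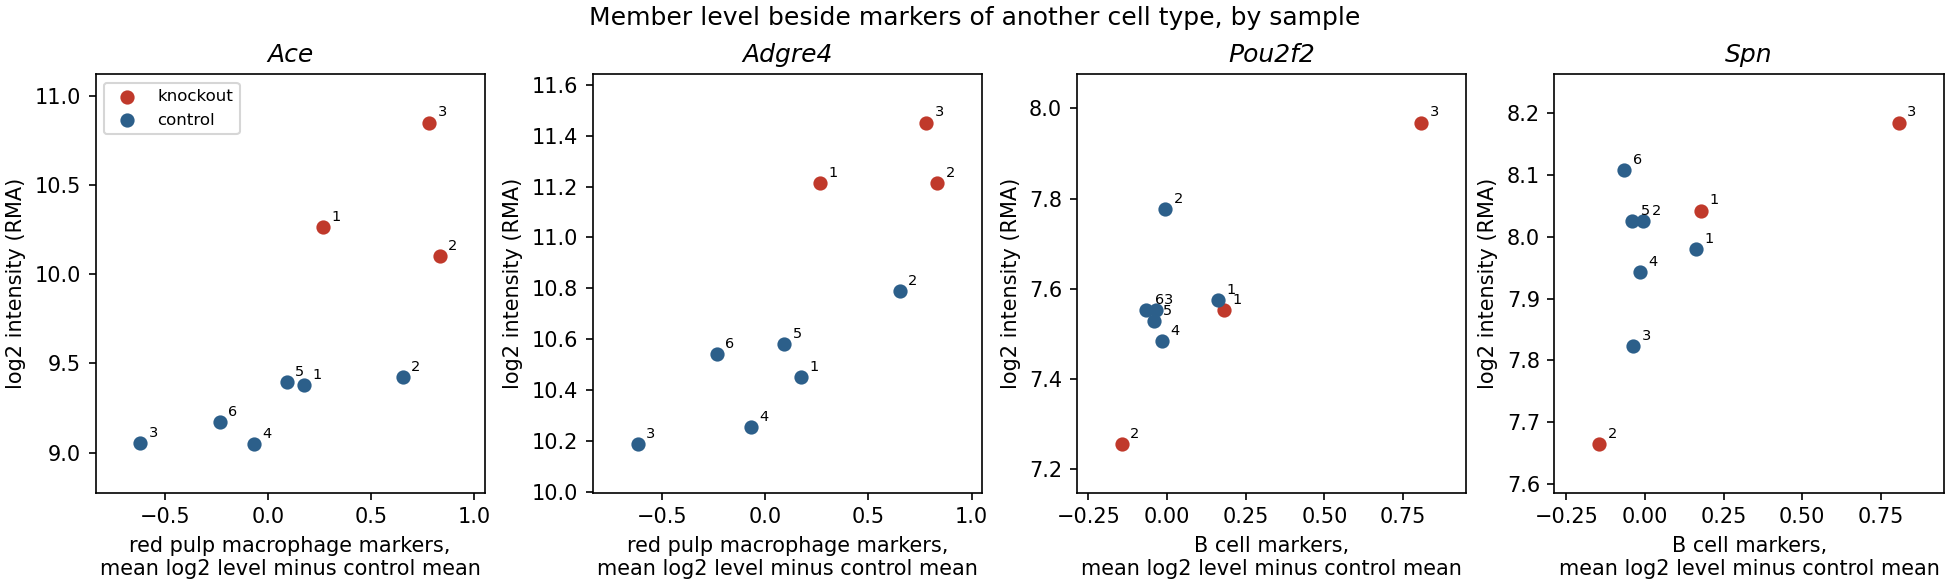
Log2 intensity of Ace, Adgre4, Pou2f2 and Spn (vertical axes) beside the mean log2 level of red pulp macrophage or B cell markers relative to the control mean (horizontal axes) in knockout (red) and control samples (blue), numbered by replicate. The macrophage markers of the knockouts, at 0.27 to 0.83, overlap those of the controls, which reach 0.65. Pou2f2 and Spn are highest in knockout replicate 3, where B cell markers stand at 0.81.

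The 9 measured cDC1 markers had 0 past the threshold and a median change of -0.05, with summed levels of 14.30 to 14.41 in the knockouts and 14.31 to 14.48 in the controls. Treml4, which CD8α-positive cDC1 also use, differed by 0.02. The brightest cDC1 markers, Ifi205 and Wdfy4, differed by -0.04 and -0.12. Of 10 cDC2 markers 2 rose, the lectin genes Mgl2 (0.90, limma's adjusted p = 0.048) and Cd209a (0.54, limma's adjusted p = 0.046), and 1 fell, Dtx1 (-0.46, limma's adjusted p = 0.018). Over all genes 0.415% rose and 0.491% fell. In 3 of the 10 every knockout lay above every control, beside 2.52% of all genes. In 2 of the 10 every knockout lay below, beside 4.88% of all genes. The median of the 10 was -0.04, a second Cd209a probe differed by -0.63, and the brightest, Cd4 and Sirpa, differed by -0.26 and -0.12. The summed level was 13.60 to 13.84 in the knockouts and 13.62 to 13.82 in the controls. The 9 plasmacytoid DC markers had 0 past the threshold and a median of 0.21, with summed levels of 11.37 to 11.82 in the knockouts and 11.20 to 11.63 in the controls. Their brightest, Bst2 and Spib, differed by 0.22 and -0.03.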

How the data were processed

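RNA of splenic DCs was labelled with biotin and hybridised to 9 single-channel arrays, and genotype labels gave 3 knockout and 6 control samples. Values were deposited as log2 intensity for each transcript-cluster probe, and the submitters' processing notes name RMA. Its version, settings and genome build were not given in the sources used here. Levels of different probes are not comparable. Of 41801 rows, 34468 had a value in every sample, and 23521 of these had exactly 1 gene symbol in the platform annotation. The brightest probe stood for each of 1082 genes with several, which left 22180 genes, with no filter on signal.

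The test was limma 3.58.1 in R 4.3.3 (lmFit, then eBayes, two-sided, without covariates), with Benjamini-Hochberg adjustment over all 22180 genes and a threshold of 0.05. On simulated data with 22000 genes it recovered 36 of 67 genes changed by 0.5, 62 of 67 changed by 1 and 66 of 66 changed by 2 (log2). Precision is limited by the number of arrays. The 8 genes and all lists were chosen with earlier results of these data known. The text names the 8 genes, Cebpb, the genes of each related list past the threshold with up to 2 of smallest p, the 2 brightest of each marker list, and the 3 nearest profiles of each gene that rose. Further named list members (Nr4a1, Cx3cr1, Cebpa, Agt, the angiotensin receptors, 3 macrophage markers and the cDC2 markers that passed) were chosen after their values were seen. Sequences are from the RefSeq promoter table, which held all 8 genes.

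Alternatives were median centring, repeated quantile normalization, eBayes with trend and robust options, array weights by limma (with statmod 1.5.0 installed), a replicate block, a filter on dim genes, averaging a gene's probes, testing every probe, a minimum change of 1.2-fold and leaving out each sample. Figures used matplotlib 3.10.9.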

Additional observations from a re-analysis of the deposited data

Results flagged for a closer look

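In 2 of the 8 genes a control sample stood far from the other controls, by the ratio of its gap to the group's range against Dixon's 95% critical value for 6 samples. Treml4 was 10.92 in control replicate 3, with the next control at 11.27 (ratio 0.661). Without that sample its change was -0.05. Pou2f2 was 7.78 in control replicate 2, with the next control at 7.57 (ratio 0.69), and without that sample its change was 0.05. Chance alone gives such a ratio in about 1 of 20 groups. Neither gene passed the threshold with or without the sample.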

How the results depend on the processing

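Ace and Adgre4 were both past the threshold under median centring, a second quantile normalization, trend and robust fitting, array weights, the filter on dim genes, the mean of a gene's probes and all probes as units. With the replicate block, 2 genes of all tested passed, 0 of the 8 and 0 of the other Ly6C-low monocyte genes, with changes of 1.12 for Ace, 0.82 for Adgre4 and -1.47 for Cebpb (adjusted p = 0.40, 0.40 and 0.14 by limma). Replicate numbers 1 to 3 occur in both groups and 4 to 6 in controls alone. With the block, the change therefore rests on replicates 1 to 3 of each group, and control replicates 4 to 6 add nothing to it. Deviations of equally numbered samples from their group means correlated at -0.14, -0.10 and 0.05 across genes, so the numbers were not taken as pairs. Against a minimum change of 1.2-fold, 7 genes passed, 0 of the 8 and 0 of the other Ly6C-low genes, with Ace at 1.16 (limma's adjusted p = 0.10) and Adgre4 at 0.83 (limma's adjusted p = 0.31). That test asks for more than a difference from 0. Over the alternatives other than leaving out a sample, limma's adjusted p ran from 0.0044 to 0.40 for Ace and from 0.0097 to 0.40 for Adgre4. Both values of 0.40 came from the replicate block. With each sample left out in turn it ran from 0.012 to 0.032 for Ace (changes 0.94 to 1.31) and from 0.010 to 0.070 for Adgre4 (changes 0.75 to 0.89), and between 1 and 2 of the 8 passed. Of the other Ly6C-low genes 5 passed with array weights, 4 with the filter on dim genes and 1 to 2 with a sample left out. The number of all genes past the threshold was 201, and 125 with median centring, 652 with array weights, 483 with the filter and 33 to 332 with a sample left out. The lowest was without knockout replicate 2 and the highest without knockout replicate 1, and without control replicates 1, 3, 4, 5 and 6 it was 66, 73, 49, 64 and 60. The balance of directions turned with the knockouts: 92 were higher and 109 lower with all samples, 78 higher and 254 lower when knockout replicate 1 was left out, 26 higher and 7 lower for replicate 2, and 134 higher and 48 lower for replicate 3. The cause of these shifts was not tested. For the 6 genes that did not pass, no alternative brought a call, and the sign of Treml4, Spn, Cd300ld and Pou2f2 turned in at least 1 of them. The median change of the 8 stayed between 0.02 and 0.21. With 3 knockout arrays, changes of about 0.5 were recovered in part in simulated data.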
